A study of Homo sapiens with 120 samples.

Results

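The comparison described here is that of TK6 cells kept for 24 h with vincristine at its lowest labelled dose and untreated TK6 cells kept for 24 h, on 3 arrays each, chosen by sample title and read across all genes. These are 6 of the 120 arrays in the series, which tested formaldehyde, 2 alkylating agents and 2 tubulin poisons to compare modes of genotoxic action. TK6 is an established human B-lymphoblastoid cell line with wild-type p53, and each group's 3 arrays are labelled as experiments 1, 2 and 3. The labels give the vincristine dose as 1 µg/ml, but the titles write it with leading zeros, so a lost decimal point cannot be told from the label, and the dose is called the lowest, against the middle (2 µg/ml) and highest (4 µg/ml) labelled doses. Further groups of 3 arrays each that are used for comparison are vincristine at the middle and highest doses for 24 h, vincristine at the lowest dose for 4 h, its untreated cultures at 4 h, and colcemid (a second tubulin-binding drug, labelled 1 µg/ml) for 24 h with its own untreated cultures. All cells are of this single line, and the labels do not say whether the 3 experiments were separate cultures, so p-values measure the spread between these arrays.

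Vincristine is a Vinca alkaloid used in chemotherapy of leukaemia and lymphoma. It binds tubulin, the alpha-beta dimer that microtubules are built from, and at high enough levels takes the mitotic spindle apart. Cells with unattached chromosomes are held in mitosis by the spindle checkpoint, and those that leave mitosis without dividing can become tetraploid and activate p53. Cells also sense free tubulin dimers and then degrade tubulin mRNA while it is being translated, a feedback in which the protein TTC5 recognises the nascent tubulin chain.

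Values are log2 signals, in which 1 unit is a 2-fold difference, and a gene was called changed at a limma adjusted p under 0.05 among 14023 tested genes. The 6 arrays were alike in RNA quality: the 3' minus 5' signal of ACTB was 0.476 ± 0.04 log2 units with vincristine and 0.463 ± 0.033 in untreated cultures, and that of GAPDH was 0.148 ± 0.019 with vincristine and 0.127 ± 0.013 in untreated cultures (SD, n = 3 each). The correlation between arrays over the tested genes was 0.99689 to 0.99802 within the vincristine group and 0.99569 to 0.99811 within the untreated group, and 0.98482 to 0.98829 between the groups. Of 27 B cell markers with a probe set, 23 lay on all 6 arrays at or above 6.183, the median signal over all probe sets, which the filter on dim genes used and which is no detection call; MS4A1, CD79A, CD79B and PAX5 were among them. Of 13 T cell and natural killer markers 6 (CD3D, CD4, CD7, CD8B, NKG7 and PRF1) were at or above that level on all 6 arrays and 5 (CD2, CD3G, CD8A, KLRD1 and LCK) below it on all 6. Of 11 myeloid markers 3 (CSF1R, S100A8 and S100A9) were at or above it and 6 (CD14, LYZ, MPO, ELANE, FCN1 and FCGR3B) below it, and of 11 epithelial and fibroblast markers 4 (CDH1, COL1A1, KRT8 and KRT18) were at or above it and 5 (EPCAM, KRT19, COL1A2, COL3A1 and LUM) below it.

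After 24 h, 5248 genes were called, 37.4% of those tested, with 2331 higher (16.6%) and 2917 lower (20.8%) in vincristine cultures. The balance depended on the scaling: 51% of 5837 calls were higher with quantile normalization repeated and 50.2% of 5678 with arrays centred on their median, in place of 44.4%. Most differences were small: 113 of the higher and 25 of the lower genes changed at least 2-fold, and the median change over all tested genes was -0.0005. All 3 vincristine arrays lay above all 3 untreated arrays for 2891 genes (20.6%) and below them for 3403 (24.3%). Among the gene lists, 40 of 46 tested p53 targets, 31 of 35 NF-kappaB targets, 17 of 24 lymphocyte activation genes and 10 of 19 members of the histone list rose. In the other direction 38 of 41 DNA replication genes, 24 of 30 spindle checkpoint and kinetochore genes, 8 of 13 tubulins, 21 of 30 glycolysis and hypoxia genes and 14 of 18 cholesterol synthesis genes fell. In RNA from whole cultures, fewer cells in a given state and less RNA per cell cannot be told apart.

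**Figure D1:**
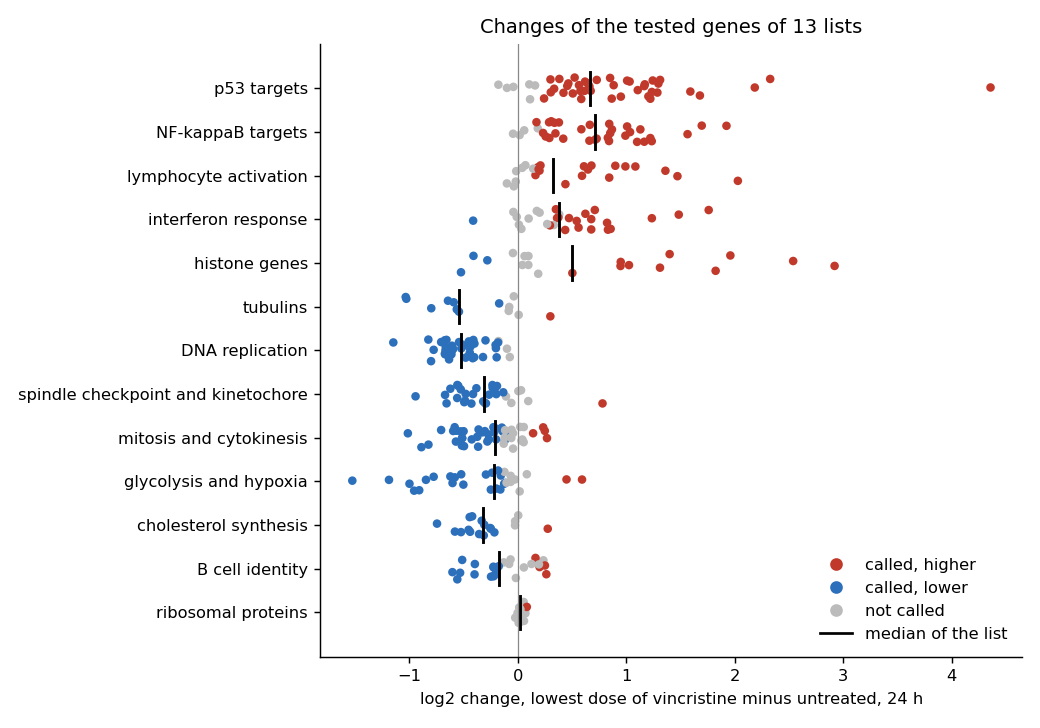
Log2 change (vincristine at the lowest dose minus untreated, 24 h) of every tested gene of 13 gene lists, 1 point per gene, red for genes called higher, blue for genes called lower and grey for genes not called, with a black bar at the list's median. The p53 and NF-kappaB lists lie to the right with medians of 0.67 and 0.71, the tubulin and DNA replication lists lie to the left with medians of -0.54 and -0.52, and the ribosomal proteins sit close to 0.

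Of 13 tested tubulin genes, 8 fell and 1 rose, with a median change of -0.54 against -0.0005 over all genes. TUBB, the most widely expressed beta-tubulin, had log2 signals of 12.34, 12.35 and 12.33 with vincristine, against 13.35, 13.40 and 13.36 in untreated cultures. TUBB4B, another beta-tubulin, had 11.68, 11.70 and 11.80 with vincristine, against 12.52, 12.53 and 12.52 in untreated cultures. TUBA4A, an alpha-tubulin, had 11.05, 11.09 and 11.08 with vincristine, against 12.09, 12.10 and 12.13 in untreated cultures. In each of these genes every vincristine array lay below every untreated array, and the arrays of a group lay close together. TUBB was 2.04-fold lower (log2 change -1.03 ± 0.0389 SE, limma adjusted p = 5.16e-14), and its other probe sets changed by -1.09 and -1.10. TUBA4A changed by -1.03 ± 0.0451 (limma adjusted p = 4.17e-13) and TUBB4B by -0.80 ± 0.0542 (limma adjusted p = 2.62e-10).

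The decline was uneven across the tubulins. Whether a probe set of 1 tubulin gene also takes signal from another was not tested. TUBG1, the gamma-tubulin of the centrosome, changed by -0.64, and the main alpha-tubulins TUBA1B and TUBA1C by -0.54 and -0.59. TUBB3, a beta-tubulin best known from neurons, changed by -0.56. TUBA1A fell least of those called, by 0.17 log2 units (10.46, 10.49 and 10.43 with vincristine, against 10.50, 10.71 and 10.70 in untreated cultures; limma adjusted p = 0.0121), and its groups nearly touched without overlapping. Its call was lost without experiment 2 (-0.15) and without experiment 3 (-0.13). TUBB2A ran the other way, with 12.13, 12.10 and 12.13 with vincristine, against 11.83, 11.79 and 11.85 in untreated cultures, a rise of 0.30 ± 0.0421 (limma adjusted p = 7.15e-06). Its vincristine arrays all lay above the untreated ones. The divergent tubulins TUBD1, TUBE1, TUBG2 and TUBA8 did not pass the test, with changes between -0.08 and 0.01. TTC5 did not pass it either, at 8.18, 8.46 and 8.18 with vincristine, against 8.30, 8.45 and 8.49 in untreated cultures (log2 change -0.14 ± 0.0689, limma adjusted p = 0.114), and its groups overlapped, but without experiment 2 it passed the test at -0.22.

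Genes that fold tubulin or steady microtubules stayed near 0 as a list: 2 of 20 rose and 6 fell, with a median of -0.03. STMN1, which encodes the microtubule-destabilising protein stathmin, fell by 0.32 (10.59, 10.65 and 10.62 with vincristine, against 10.91, 10.99 and 10.93 in untreated cultures; limma adjusted p = 8.45e-07). With its probe sets averaged the change of STMN1 was -0.13 and not called. TTL, the enzyme that adds tyrosine back to alpha-tubulin, changed by -0.39, and TBCB, a cofactor of tubulin folding, by 0.40.

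**Figure D2:**
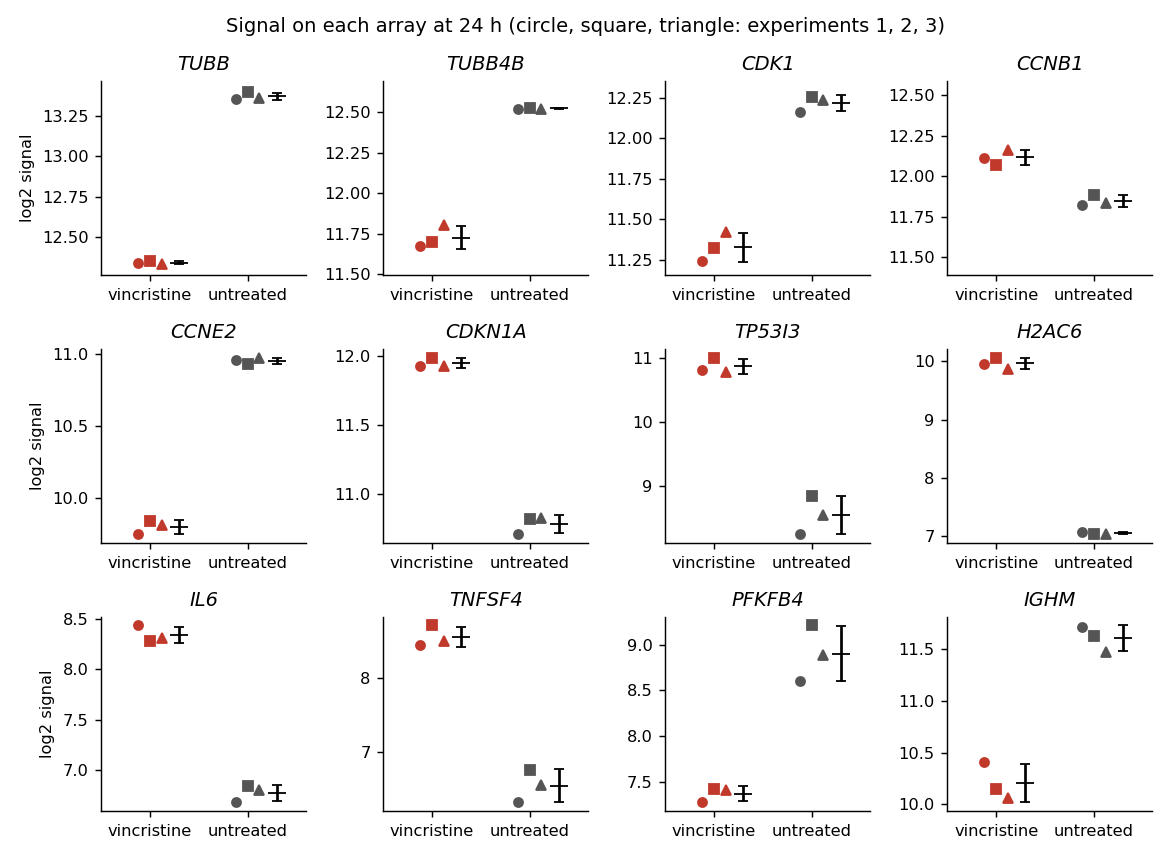
Log2 signal of 12 genes on each array at 24 h, vincristine at the lowest dose on the left (red) and untreated on the right (grey), with circles, squares and triangles for experiments 1, 2 and 3 and the mean ± SD (n = 3) beside them; each panel has its own axis, which does not start at 0. In all 12 genes the 2 groups are apart, with CCNB1 higher with vincristine where CDK1 is lower.

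Genes of the kinetochore and the spindle checkpoint, which hold cells in mitosis until chromosomes are attached, were lower for 24 of 30 members and higher for 1, with a median of -0.31. CENPI, a protein of the inner kinetochore, showed the largest fall of the list (-0.94 ± 0.106, limma adjusted p = 4.04e-07), with 7.37, 7.46 and 7.12 in vincristine cultures, against 8.13, 8.41 and 8.24 in untreated cultures. SPC24 of the NDC80 complex changed by -0.67 (its dimmer probe set by -0.07), KNTC1 of the ROD-ZW10 complex by -0.66, and the checkpoint protein BUB3 by -0.62. MAD1L1, the checkpoint protein that recruits MAD2 to kinetochores, was the member that rose, with 8.17, 8.48 and 8.24 in vincristine cultures, against 7.42, 7.74 and 7.39 in untreated cultures (0.78 ± 0.0929, limma adjusted p = 8.53e-07). Neither gene's groups overlapped, CENPI being lower and MAD1L1 higher on every vincristine array. CDC20, the activator of the anaphase-promoting complex, did not pass the test (0.10, limma adjusted p = 0.24).

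Of 50 genes of mitosis and cytokinesis, 33 fell, 4 rose and 13 did not pass the test, with a median of -0.21. CDK1, the kinase that drives entry into mitosis, had 11.24, 11.32 and 11.42 with vincristine, against 12.16, 12.26 and 12.24 in untreated cultures, a change of -0.89 ± 0.0549 (limma adjusted p = 7.11e-11). UBE2C, the ubiquitin-conjugating enzyme of the anaphase-promoting complex, changed by -1.01 ± 0.0667, AURKB, the kinase of the chromosomal passenger complex, by -0.82 ± 0.0486, and the proliferation marker MKI67 by -0.71 ± 0.0922, each with every vincristine array below every untreated one. The partners that CDK1 needs in mitosis went the other way. CCNB1 (cyclin B1) had 12.12, 12.07 and 12.16 with vincristine, against 11.82, 11.89 and 11.84 in untreated cultures (0.27 ± 0.0534, limma adjusted p = 0.000364). CCNB2 (cyclin B2) had 11.33, 11.29 and 11.34, against 11.04, 11.11 and 11.07 in untreated cultures (0.25 ± 0.0585, limma adjusted p = 0.00175). PTTG1 (securin, the brake on sister chromatid separation) rose by 0.23 and the centrosomal kinase NEK2 by 0.14. The mitotic kinases AURKA (0.06, limma adjusted p = 0.501) and PLK1 (-0.12, limma adjusted p = 0.21) did not pass the test.

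Many mitotic genes share a promoter element called the cell cycle genes homology region (CHR), bound by repressor and activator complexes that turn with the cell cycle. The letters TTTGAA or TTCGAA were searched on both strands of the 300 bases from 250 before to 50 after each gene's start in the RefSeq promoter table (GRCh38.p14). They occurred in 30 of the 43 mitosis and cytokinesis genes with an entry (69.8%) and in 15 of 24 checkpoint and kinetochore genes (62.5%), against 12.1% of the 11163 tested genes with an entry. The promoters of CDK1 (chr10:60778081-60778380, plus strand) and CCNB2 (chr15:59104896-59105195, plus strand) are shown because both hold these letters, at different distances from the start. CDK1 fell and CCNB2 rose, and the pair was chosen after their values were seen. Capitals mark the match.
CDK1: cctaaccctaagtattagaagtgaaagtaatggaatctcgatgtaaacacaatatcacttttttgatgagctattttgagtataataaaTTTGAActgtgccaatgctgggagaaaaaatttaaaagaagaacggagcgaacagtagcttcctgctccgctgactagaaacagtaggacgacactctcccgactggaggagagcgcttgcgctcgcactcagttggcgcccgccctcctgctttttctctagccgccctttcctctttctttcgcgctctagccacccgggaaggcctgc
CCNB2: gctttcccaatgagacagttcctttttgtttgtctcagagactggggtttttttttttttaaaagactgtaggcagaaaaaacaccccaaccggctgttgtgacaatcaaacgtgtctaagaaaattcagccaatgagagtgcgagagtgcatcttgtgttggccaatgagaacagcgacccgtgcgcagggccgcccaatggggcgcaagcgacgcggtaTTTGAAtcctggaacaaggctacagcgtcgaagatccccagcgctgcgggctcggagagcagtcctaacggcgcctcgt
A match of letters describes the sequence and does not show that a factor was bound.

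DNA replication genes were the most uniform of the falling lists. Of 41 tested, 38 fell, 0 rose and 3 (GINS4, ORC6 and PCNA) did not pass the test, and the median was -0.52. CCNE2, the cyclin E that starts S phase, had 9.75, 9.85 and 9.81 with vincristine, against 10.96, 10.93 and 10.97 in untreated cultures (-1.15 ± 0.0712, limma adjusted p = 7.29e-11). CLSPN (claspin, of the replication checkpoint) had 7.78, 7.88 and 7.91 with vincristine, against 8.62, 8.77 and 8.65 in untreated cultures (-0.83 ± 0.0608, limma adjusted p = 8.33e-10), and its 3 dimmer probe sets changed by -0.22 to -0.77. No vincristine array of either gene reached the lowest untreated one. The primase and polymerase alpha subunits PRIM1 and POLA1 changed by -0.80 and -0.78, the helicase subunit MCM2 by -0.42 and the thymidine kinase TK1 by -0.60. PCNA, the sliding clamp and also a p53 target, had 13.34, 13.28 and 13.39 with vincristine, against 13.41, 13.39 and 13.42 in untreated cultures, and its groups overlapped (-0.07, limma adjusted p = 0.253).

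The replication genes' promoters were searched for the E2F element (TTTCCCGC, TTTGGCGC, TTTCGCGC or TTTGCCGC, both strands), through which E2F factors activate genes of the G1 to S transition. It occurred in 21 of 37 with an entry (56.8%), against 5.04% of all tested genes with an entry. The CLSPN promoter (chr1:35769929-35770228, minus strand, GRCh38.p14) is shown because it holds a match and the gene had the second largest fall of the list; capitals mark the match, on the opposite strand.
CLSPN: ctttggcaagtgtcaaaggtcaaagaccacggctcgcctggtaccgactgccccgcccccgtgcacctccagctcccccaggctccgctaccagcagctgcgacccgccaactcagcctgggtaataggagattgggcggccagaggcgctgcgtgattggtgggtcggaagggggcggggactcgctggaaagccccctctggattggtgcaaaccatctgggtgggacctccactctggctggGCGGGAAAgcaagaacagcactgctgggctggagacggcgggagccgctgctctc
FBXO5, RBL1, WDR76 and MTFR2 were also among the 12 largest falls of all genes. FBXO5, which encodes EMI1, an inhibitor of the anaphase-promoting complex, had 9.81, 9.90 and 9.96 with vincristine, against 11.61, 11.36 and 11.46 in untreated cultures (-1.58 ± 0.102, limma adjusted p = 1.19e-10). The retinoblastoma-like protein p107 (RBL1) changed by -1.13, the WD-repeat protein WDR76 by -1.31 and MTFR2, a regulator of mitochondrial fission, by -1.26. All 4 genes were lower in every experiment.

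Histone genes rose against this trend. Of 19 tested members of the histone list, which are histone genes and SLBP, 10 rose, 3 fell and 6 did not pass the test, with a median of 0.50. H2AC6, an H2A gene of the large histone cluster, had 9.96, 10.06 and 9.87 with vincristine, against 7.06, 7.03 and 7.04 in untreated cultures, a 7.57-fold rise (2.92 ± 0.116, limma adjusted p = 1.13e-13). H2BC12 had 12.61, 12.68 and 12.58 with vincristine, against 10.10, 10.09 and 10.06 in untreated cultures (2.54 ± 0.0757, limma adjusted p = 3.08e-15). These were the second and the fourth largest fitted rises among all genes, and in both the groups stood apart by more than 2 log2 units. H2BC21, H2BC4, H2BC6 and the linker histone H1-2 rose by 1.96, 1.82, 1.40 and 1.31. H4C4 fell by 0.41 and H1-5 by 0.28, both from signals near or below 6.183, and SLBP, the protein that binds the stem-loop of replication-dependent histone mRNAs, fell by 0.52 (12.11, 12.01 and 12.09 with vincristine, against 12.61, 12.58 and 12.59 in untreated cultures). Histone genes are near-identical copies, so a probe set can take signal from more than 1 of them. Replication-dependent histone mRNAs normally lack the poly(A) tail from which this kind of labelling is primed, and whether the forms measured here carried one was not tested.

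The TATA letters TATAAA occurred, on either strand, in 12 of the 19 promoters of the histone list (63.2%), SLBP included, against 6.6% of all tested genes with an entry. The H2AC6 promoter (chr6:26123922-26124221, plus strand, GRCh38.p14) is shown for the largest rise of the list, with the TATAAA match in capitals. The start of H2BC4 lies 246 bases away on the opposite strand, so both genes, which rose together, share this stretch of DNA. The only match counted for H2BC4 is this same TATAAA read on the other strand, so it counts for both genes among the 12.
H2AC6: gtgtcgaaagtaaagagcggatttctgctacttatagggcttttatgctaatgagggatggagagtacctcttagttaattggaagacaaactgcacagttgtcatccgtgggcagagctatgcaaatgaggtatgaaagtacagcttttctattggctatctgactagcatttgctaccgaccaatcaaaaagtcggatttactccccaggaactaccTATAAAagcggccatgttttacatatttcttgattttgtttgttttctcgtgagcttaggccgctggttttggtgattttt

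Targets of p53 rose nearly throughout: 40 of 46 tested rose, 0 fell and 6 did not pass the test, with a median of 0.67. TP53I3 (a quinone oxidoreductase) had 10.82, 11.01 and 10.79 with vincristine, against 8.25, 8.85 and 8.55 in untreated cultures, a 5.02-fold rise (2.33 ± 0.104, limma adjusted p = 5.55e-13). CDKN1A (the cyclin-dependent kinase inhibitor p21) had 11.93, 11.99 and 11.93 with vincristine, against 10.71, 10.81 and 10.82 in untreated cultures (1.17 ± 0.0542, limma adjusted p = 9.31e-13). MDM2 (the ubiquitin ligase of p53) had 12.41, 12.44 and 12.42 with vincristine, against 11.10, 11.32 and 11.19 in untreated cultures (1.22 ± 0.0581, limma adjusted p = 1.39e-12). All vincristine arrays of these genes lay above all untreated ones, by at least 1 log2 unit. GDF15, a secreted cytokine, rose by 2.18 ± 0.105, though its dimmer probe sets changed by 0.20 and 0.12. Death receptor FAS rose by 1.01, the sestrins SESN1 and SESN2 by 1.204 and 1.30, and TP53INP1, a nuclear cofactor of p53, by 1.59. PERP, SPATA18, TP73, PRDM1, EDA2R and ABHD4 did not pass the test, with changes between -0.18 and 0.16.

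The largest fitted change of any gene was in CYP4F3, an omega-hydroxylase of leukotriene B4 that stands in the p53 list. It had 8.84, 9.34 and 8.90 with vincristine, against 4.75, 4.84 and 4.42 in untreated cultures, so its untreated arrays were dim, below 6.183, and its vincristine arrays above it. The fitted change was 4.36 ± 0.148 (limma adjusted p = 2.24e-14), and with signals below 6.183 raised to that level, a choice made after seeing the data, the rise was at least 7.18-fold. CYP4F2, a close relative, had 8.70, 8.98 and 8.56 with vincristine, against 6.24, 5.91 and 6.26 in untreated cultures (2.61 ± 0.118). The 2 genes are similar enough in sequence that their probe sets may share signal, and which of them rose is uncertain. LCE1B, a gene of the cornified envelope of skin, rose by 2.41 and FAM13C by 2.23, and both were higher in all 3 experiments. Counted as for CYP4F3, the rise was at least 1.61-fold for FAM13C, and for genes described elsewhere in the text whose untreated arrays were all below 6.183 it was at least 2.46-fold for CXCL11, 1.64-fold for CXCL8, 1.3-fold for FUCA1, 2.4-fold for H2BC21, 2.5-fold for H2BC4, 1.65-fold for SLAMF7 and 1.21-fold for IFI44L.

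Genes of the PIDDosome, the complex through which extra centrosomes activate caspase-2 and p53, and of other tetraploid arrest moved both ways: 6 of 12 rose and 5 fell, with a median of 0.09. PIDD1, its scaffold, rose by 0.48 (10.07, 10.06 and 10.11 with vincristine, against 9.52, 9.71 and 9.59 in untreated cultures), and 2 of the 12 were called higher when probe sets were averaged. CASP2 fell by 0.35, ANKRD26, which anchors PIDD1 at the centriole, by 0.50, and USP28, a deubiquitinase of the mitotic stopwatch, by 0.52. Of 26 apoptosis regulators, 14 rose and 3 fell, with a median of 0.25. BCL2A1, an anti-apoptotic BCL2 relative, averaged 12.12 ± 0.116 with vincristine and 10.90 ± 0.151 in untreated cultures (SD, n = 3 each), without overlap. It rose by 1.22 ± 0.0683 (limma adjusted p = 1.43e-11). The caspase-8 inhibitor CFLAR rose by 0.71, the inflammatory caspase CASP1 by 0.85 and the pro-apoptotic BAX by 0.62, so both anti-apoptotic and pro-apoptotic members were among the risers. CFLAR averaged 10.78 in untreated cultures at 4 h, 9.86 in untreated cultures at 24 h and 10.58 with vincristine at 24 h. In the same order CASP1 averaged 7.22, 6.75 and 7.60, and BAX 10.05, 9.78 and 10.40. The change of untreated cultures with time was not tested for these genes. MCL1 did not pass the test (0.04, limma adjusted p = 0.586).

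NF-kappaB targets rose for 31 of 35 tested genes and fell for 0, with a median of 0.71. CCL4, a chemokine that draws T cells and monocytes, had 9.59, 9.82 and 9.54 with vincristine, against 7.69, 7.71 and 7.78 in untreated cultures (1.92 ± 0.112, limma adjusted p = 2.74e-11). IL6, a cytokine of B cell and plasma cell growth, had 8.43, 8.28 and 8.31 with vincristine, against 6.69, 6.84 and 6.80 in untreated cultures (1.56 ± 0.118, limma adjusted p = 1.19e-09). In both genes every vincristine array lay more than 1 log2 unit above every untreated one. CXCL8 rose by 1.70 (0.83 in its dimmer probe set), CCL20 by 1.23, TNF by 1.04 and the feedback inhibitors TNFAIP3 and NFKBIA by 0.87 and 0.73. Adhesion genes counted in this list rose too, CD44 by 1.17 and ICAM1 by 1.10. Untreated cultures at 4 h averaged 8.33 for IL6, 12.28 for CCL20, 7.835 for CXCL8 and 9.18 for CCL4. In the same order, untreated cultures at 24 h averaged 6.78, 10.99, 5.20 and 7.73. Vincristine cultures at 24 h averaged 8.34, 12.22, 6.90 and 9.65. Rises here are against untreated cultures of the same time. Whether vincristine raised these genes or kept them from declining with time was not tested.

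The NF-kappaB consensus motif, searched on both strands, occurred in 12 of 29 promoters of the list with an entry (41.4%), against 6.9% of all tested genes with an entry. The promoter of TNFAIP3, which encodes the ubiquitin-editing enzyme A20 (chr6:137867009-137867308, plus strand, GRCh38.p14), is shown because it holds 2 matches side by side, in capitals, and its arrays were at 12.29, 12.30 and 12.25 with vincristine, against 11.42, 11.43 and 11.39 in untreated cultures.
TNFAIP3: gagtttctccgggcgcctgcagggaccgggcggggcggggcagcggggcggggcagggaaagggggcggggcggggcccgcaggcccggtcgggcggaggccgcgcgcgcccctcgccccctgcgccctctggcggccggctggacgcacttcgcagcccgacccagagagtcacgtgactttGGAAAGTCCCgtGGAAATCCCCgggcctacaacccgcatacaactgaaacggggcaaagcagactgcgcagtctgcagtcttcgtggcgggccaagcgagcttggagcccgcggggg

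Immediate early genes rose for 19 of 30 members and fell for 3, with a median of 0.36. RGS1, a brake on G protein signalling in B cells, had 10.70, 11.001 and 10.91 with vincristine, against 8.47, 8.80 and 8.82 in untreated cultures (2.18 ± 0.092, limma adjusted p = 2.65e-13). The transcription factors EGR1, ATF3 and JUN rose by 1.72, 1.31 and 1.15, whereas JUND fell by 0.62 and the mRNA decay factor ZFP36 by 0.36, and MYC did not pass the test (-0.04). Among lymphocyte activation genes, 17 of 24 rose and 0 fell, with a median of 0.32. TNFSF4 (OX40 ligand, a co-stimulator of T cells) had 8.46, 8.72 and 8.51 with vincristine, against 6.31, 6.75 and 6.55 in untreated cultures (2.03 ± 0.101, limma adjusted p = 2.68e-12). The co-stimulators CD80 and CD86 rose by 1.36 and 0.68, SLAMF1 by 1.47 and TNFRSF9 (4-1BB) by 1.08. CD80 averaged 9.275 in untreated cultures at 4 h, 7.84 in untreated cultures at 24 h and 9.20 with vincristine at 24 h. TNFAIP6, a secreted hyaluronan-binding protein outside these lists, rose by 2.04, and ITGAM, the integrin alpha-M chain, by 1.42 (0.14 in its dimmer probe set).

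Interferon response genes were higher for 18 of 29 members and lower for 1, with a median of 0.38. IFIT2, which binds foreign RNA, had 8.05, 8.24 and 7.85 with vincristine, against 6.20, 6.43 and 6.24 in untreated cultures (1.76 ± 0.146, limma adjusted p = 4.79e-09), with 0.13 in its dimmer probe set. TRIM22, an antiviral ubiquitin ligase that is also in the p53 list, had 12.15, 12.18 and 12.09 with vincristine, against 10.83, 10.98 and 10.89 in untreated cultures (1.24 ± 0.046, limma adjusted p = 5.16e-14). Each gene's vincristine arrays were all above its untreated arrays. The chemokine CXCL11, outside the list, rose by 2.06 and IFIT3 by 0.86. CGAS, the sensor of cytosolic DNA, was the member that fell (-0.41), while its partner STING1 rose by 0.37. OAS1, IRF7 and BST2 did not pass the test, with changes of 0.01, 0.03 and 0.10. The interferon-stimulated response element (ISRE) motif occurred, on either strand, in 13 of 20 promoters of the list with an entry (65%), against 2.88% of all tested genes with an entry, and the promoter of IFI44L (chr1:78620198-78620497, plus strand, GRCh38.p14) is shown because its 2 matches, in capitals, stand in a repeated stretch.
IFI44L: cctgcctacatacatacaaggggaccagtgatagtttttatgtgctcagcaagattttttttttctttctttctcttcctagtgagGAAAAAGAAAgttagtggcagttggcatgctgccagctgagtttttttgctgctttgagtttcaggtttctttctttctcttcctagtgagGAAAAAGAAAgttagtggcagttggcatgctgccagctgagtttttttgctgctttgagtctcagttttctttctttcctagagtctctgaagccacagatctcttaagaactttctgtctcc
IFI44L itself had 6.27, 6.91 and 5.79 with vincristine, against 5.11, 4.75 and 4.67 in untreated cultures, a wide spread (1.48 ± 0.243, limma adjusted p = 4.48e-05).

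Genes of glycolysis and hypoxia fell for 21 of 30 members and rose for 2, with a median of -0.22. PFKFB4, an enzyme that sets the level of a glycolytic activator, had 7.28, 7.43 and 7.41 with vincristine, against 8.61, 9.21 and 8.88 in untreated cultures (-1.53 ± 0.106, limma adjusted p = 3.67e-10), with -0.26 in its dimmer probe set. PDK1, the kinase that shuts pyruvate out of mitochondria, changed by -1.19, and the mitophagy proteins BNIP3 and BNIP3L by -0.999 and -0.96. MIR210HG, the host transcript of the hypoxia-induced miR-210 (the miRNA itself was not measured), showed the largest fitted fall of all genes, with 5.53, 5.77 and 5.72 in vincristine cultures, against 7.51, 8.24 and 7.82 in untreated cultures (-2.18 ± 0.118, limma adjusted p = 9.14e-12). Its vincristine arrays were below 6.183 and its untreated arrays above it, so the fall is given as at least 3.19-fold. At 4 h the same gene stood at 5.82, 5.76 and 5.68 with vincristine, against 6.04, 5.92 and 5.93 in untreated cultures, and PFKFB4 at 7.23, 6.98 and 6.95 with vincristine, against 7.13, 7.08 and 7.22 in untreated cultures. Every untreated array at 24 h was above every untreated array at 4 h for both genes, while the vincristine arrays at 24 h were close to the 4 h level. MXI1 and the glucose transporter SLC2A3 rose by 0.59 and 0.45, while LDHA fell by 0.24 and SLC2A1 did not pass the test (-0.10).

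Cholesterol synthesis genes fell for 14 of 18 members and rose for 1, with a median of -0.32. HMGCS1, the enzyme that makes HMG-CoA, had 9.89, 9.88 and 9.97 with vincristine, against 10.48, 10.88 and 10.59 in untreated cultures (-0.74 ± 0.0832, limma adjusted p = 3.62e-07). SQLE (squalene epoxidase), MVD and DHCR7 changed by -0.58, -0.52 and -0.45, and PMVK, a kinase of the same pathway, rose by 0.28. Untreated cultures averaged 8.59 for HMGCS1, 9.05 for DHCR7 and 7.235 for MVD at 4 h, and 10.65, 10.01 and 7.716 at 24 h. Vincristine cultures at 24 h averaged 9.91, 9.55 and 7.192. These falls are against untreated cultures of the same time, and the change of untreated cultures with time was not tested. SLCO4C1, an organic anion transporter, and APELA, a peptide ligand of the apelin receptor, were outside these lists and among the 3 largest fitted falls of all genes, with changes of -1.89 ± 0.201 and -1.69 ± 0.146. Both were below 6.183 on every vincristine array, and the fall was at least 1.98-fold for APELA and at least 1.17-fold for SLCO4C1 when signals were raised to that level. SLCO4C1 was dim and spread widely between untreated arrays, at 4.05, 4.40 and 4.41 with vincristine, against 5.51, 6.76 and 6.28 in untreated cultures, without overlap. NRN1 (neuritin, a membrane-anchored growth factor of neurons) changed by -1.19.

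B cell identity genes fell for 13 of 25 members and rose for 4, with a median of -0.18. The kinase SYK of B cell receptor signalling changed by -0.60, the co-receptor CD22 by -0.56, the co-activator POU2AF1 by -0.53 and the factor SPIB by -0.51 (0.09 in its dimmer probe set; POU2AF1 was at -0.07 and not called with its probe sets averaged), while the antigen presentation genes CD74 and CIITA rose by 0.25 and 0.26. The summed log2 level of the list's 27 genes with a probe set was 243.44 to 245.46 with vincristine and 246.02 to 249.73 in untreated cultures. Of 16 plasma cell genes, 7 fell and 2 rose, with a median of -0.10. IGHM, the heavy chain of IgM, had 10.41, 10.14 and 10.06 with vincristine, against 11.72, 11.63 and 11.48 in untreated cultures (-1.41 ± 0.172, limma adjusted p = 1.23e-06), and its other probe sets changed by -1.14 to 0.09. TNFRSF17 (BCMA, a survival receptor of plasma cells) had 9.14, 9.12 and 8.98 with vincristine, against 10.26, 10.15 and 10.19 in untreated cultures (-1.12 ± 0.0713, limma adjusted p = 1.09e-10). MZB1, a chaperone of IgM assembly, changed by -0.80 and the secretory factor XBP1 by -0.46, whereas the surface receptor SLAMF7 rose by 1.02. Untreated cultures averaged 9.94 for IGHM and 10.07 for MZB1 at 4 h, and 11.61 and 11.13 at 24 h. Vincristine cultures at 24 h averaged 10.20 and 10.33, above the 4 h level. CD22 averaged 8.76 at 4 h and 9.25 at 24 h in untreated cultures, and 8.69 with vincristine at 24 h. The change of untreated cultures with time was not tested.

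The lists of markers of other cell types were short, and their counts stand beside 16.6% higher and 20.8% lower over all tested genes. Of the monocyte and granulocyte markers tested, 2 of 5 rose (ITGAM by 1.42 and S100A8 by 0.45) and 0 fell. Their dimmer probe sets changed by 0.14 for ITGAM and 0.08 for S100A8. The sum of the 11 with a probe set was 65.27 to 65.94 with vincristine and 62.86 to 63.68 in untreated cultures. CSF1R, S100A8 and S100A9 were at or above 6.183 on all 6 arrays and CD14, LYZ, MPO, ELANE, FCN1 and FCGR3B below it on all 6. All samples are of the TK6 line, and whether other cells were present was not tested. Of 9 T and natural killer markers 1 rose and 1 fell, of 7 epithelial and fibroblast markers 1 rose and 1 fell, and of 5 red blood cell markers 0 rose and 1 fell. Their sums were 80.53 to 81.91 with vincristine and 79.98 to 82.37 in untreated cultures for T and natural killer cells, and 68.44 to 68.76 and 42.06 to 42.48 with vincristine, against 68.06 to 68.9 and 42.27 to 42.81 in untreated cultures, for the epithelial and red cell lists.

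Other lists held genes that moved in both directions or not at all. Over all tested genes 16.6% were called higher and 20.8% lower. Near these shares were adhesion and integrins (17.4% and 17.4%), oxidative phosphorylation (19.2% and 15.4%) and the unfolded protein response (17.4% and 21.7%). Ribosomal proteins had 1 of 20 higher, 0 lower and a median of 0.02, and proteasome genes 4 of 26 higher, 1 lower and a median of 0.01. Housekeeping genes had a median of -0.03 but 5 of 9 were called, 2 higher and 3 lower, with HPRT1 (a purine salvage enzyme) at -0.34 and SDHA (of mitochondrial complex II) at -0.32. Oxidative phosphorylation had 5 of 26 higher and 4 lower, and without experiment 1 none of its genes was called higher, against 1 for the proteasome. Ribosome biogenesis had 2 of 23 higher and 7 lower (3 lower without experiment 1), heat shock and chaperones 3 of 25 higher and 2 lower, and the unfolded protein response 4 of 23 higher and 5 lower (2 lower when only the compared groups were fitted). Genes of the ATF4 and amino acid response rose for 15 of 31 and fell for 10, with SESN2, SLC7A11 (the cystine transporter) and CTH (cystathionine gamma-lyase) up by 1.30, 1.19 and 1.13 and the ATF4 target DDIT4 down by 0.34. NRF2 and thiol defence was split, with 6 of 22 higher and 6 lower, HMOX1 (haem oxygenase) falling by 0.62 and GCLM by 0.57. Lysosome and autophagy genes rose for 13 of 25 and fell for 2, with a median of 0.18, among them FUCA1 (a lysosomal fucosidase and p53 target) by 1.68 and the autophagosome protein MAP1LC3B by 0.50. Cytoskeleton and SRF targets rose for 12 of 25 and fell for 1 (7 rose without experiment 1), among them smooth muscle actin ACTA2 (0.85) and LIMA1 (0.60), and adhesion and integrin genes were split at 4 of 23 higher and 4 lower, with ITGB7 falling by 0.66.

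At 4 h the same dose left no gene past the threshold: 0 of 14023 were called (0%), and 511 had an unadjusted limma p under 0.05. TUBB stood at 13.49, 13.43 and 13.42 with vincristine, against 13.50, 13.48 and 13.46 in untreated cultures, and CDKN1A at 11.07, 10.90 and 11.14 with vincristine, against 11.12, 11.05 and 11.06 in untreated cultures. The log2 changes at 4 h were -0.03 for TUBB, -0.04 for CDKN1A, 0.16 for CYP4F3 (below 6.183 on every array of both groups) and -0.06 for H2AC6. The change at 24 h was tested against that at 4 h in one model, and 3547 genes (25.3%) differed, 1522 toward higher at 24 h (10.9%) and 2025 toward lower (14.4%). The share toward higher was 42.9%, and 52.3% of 4251 with quantile normalization repeated. Without experiment 1 this count was 1860 and without experiment 2 it was 2095. The difference was called for 40 of 46 p53 targets, 29 of 35 NF-kappaB targets and 10 of 19 members of the histone list toward higher, and for 37 of 41 replication genes, 22 of 30 checkpoint genes and 7 of 13 tubulins toward lower. CXCL8 had the largest change of the cytokines at 4 h that were named above (0.57 ± 0.176), which did not pass the test, and its 24 h minus 4 h difference was 1.13 (limma adjusted p = 0.00181).

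The lowest dose called about as many genes as higher ones. The middle dose called 5174 (36.9%) and the highest 5011 (35.7%), but these comparisons share the untreated arrays with that of the lowest dose, so the doses were compared directly. The lowest dose differed from the middle in 706 genes (5.03%), 313 higher (2.23%) and 393 lower (2.8%), and from the highest in 1909 (13.6%), 763 higher (5.44%) and 1146 lower (8.17%). Leaving out any experiment lowered both counts. Against the middle dose 24, 193 and 150 genes were left without experiments 1, 2 and 3, and against the highest dose 500, 825 and 1260. Without experiment 1 the share of calls that were higher was 66.7% against the middle and 54.4% against the highest dose, in place of 44.3% and 40%.

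p53 targets were higher at the lowest dose. Against the highest dose 32 of 46 were higher and 0 lower (22, 21 and 24 higher without experiments 1, 2 and 3), and against the middle dose 17 were higher and 0 lower (1, 6 and 3 higher without experiments 1, 2 and 3). TP53I3 at 24 h had 10.82, 11.01 and 10.79 at the lowest, 9.98, 10.25 and 9.97 at the middle and 9.59, 9.76 and 9.47 at the highest dose. The largest value at the highest dose was below the smallest at the lowest, and the lowest minus highest difference was 1.27 ± 0.104 (limma adjusted p = 1.75e-07). CYP4F3 changed by 4.36, 3.65 and 3.15 from untreated at the lowest, middle and highest doses, MDM2 by 1.22, 1.01 and 0.77, and CDKN1A by 1.17, 0.91 and 0.81. LCE1B and PXT1 were also higher at the lowest than at the highest dose, by 1.15 and 1.13. Of 19 members of the histone list, 8 were higher at the lowest than at the highest dose and 0 lower, with H2AC6 differing by 0.94 (limma adjusted p = 1.31e-05).

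Mitotic genes stood lower at the lowest than at the highest dose, where 40 of 50 were lower and 2 higher (26 lower without experiment 1), and against the middle dose the count of 34 lower and 0 higher rested on all 3 experiments, with 0, 14 and 14 lower without experiments 1, 2 and 3. CCNB1 had 12.12, 12.07 and 12.16 at the lowest, 12.43, 12.35 and 12.45 at the middle and 12.50, 12.49 and 12.49 at the highest dose (-0.38 ± 0.0534 for lowest minus highest, limma adjusted p = 6.71e-05), without overlap between the lowest and the highest. AURKA, which did not pass the test against untreated cells at the lowest dose, changed from them by 0.33 and 0.39 at the middle and highest doses. Among checkpoint and kinetochore genes 21 of 30 were lower and 2 higher than at the highest dose (8 and 12 lower without experiments 1 and 2), and among replication genes 16 of 41 were lower and 0 higher (1 and 2 without experiments 1 and 2).

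TUBB fell further at higher doses, with 12.34, 12.35 and 12.33 at the lowest, 11.98, 11.98 and 12.07 at the middle and 12.03, 11.96 and 11.93 at the highest dose (lowest minus highest 0.37 ± 0.0389, limma adjusted p = 2.85e-06). TUBA1A did the opposite, with changes from untreated of -0.17, 0.00 and 0.16 at the lowest, middle and highest doses (lowest minus highest -0.33, limma adjusted p = 0.000206). Of 35 NF-kappaB targets, 13 were lower and 1 higher at the lowest than at the highest dose (5 lower without experiment 1), and the median difference was -0.05. CCL4 of this list did not pass the test, with changes from untreated of 1.92 at the lowest and 1.87 at the highest dose (limma adjusted p = 0.845 for the difference). TNFRSF9, CXCL8 and TNF differed by -0.81, -0.83 and -0.62 between the lowest and the highest dose, though the call of CXCL8 was lost without experiment 1 (-0.81) or 3 (-0.78). HMGCS1 was lower at the lowest dose, at 9.89, 9.88 and 9.97 there, 10.60, 10.32 and 10.44 at the middle and 10.49, 10.52 and 10.40 at the highest dose, and 12 of 18 cholesterol genes were lower and 0 higher than at the highest dose (6 lower without experiment 1). TNFRSF17, by contrast, was 1.12 higher at the lowest than at the highest dose (limma adjusted p = 8.84e-09), where its changes from untreated were -1.12 and -2.24. The largest differences between the lowest and the middle dose toward higher were in ERICH3 (1.17), PXT1 (0.84), LCE1B (0.82), TP53I3 (0.81) and the phospholipase-domain gene PLCXD2 (0.80). PLCXD2 was at 0.77 and no longer called without experiment 1. ERICH3 was below 6.183 on every array of the lowest, middle and highest doses, so the sizes of its differences between doses are uncertain. Toward lower the largest differences were in TNFRSF9 (-0.66), HMGCS1 (-0.55), TNF (-0.54), TMCC3 (-0.53) and PSD3 (-0.51). Without experiment 1 HMGCS1 (-0.46) and PSD3 (-0.42) were no longer called, and without experiment 3 PSD3 (-0.54) was not. Against the highest dose the phosphodiesterase PDE10A (-0.68), TMCC3 (-0.78) and PSD3 (-0.67) were among the lower and ERICH3 (1.22) among the higher. The dimmer probe set of ERICH3 changed by -0.12 from untreated at the lowest dose, and its difference between doses was not tested.

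**Figure D3:**
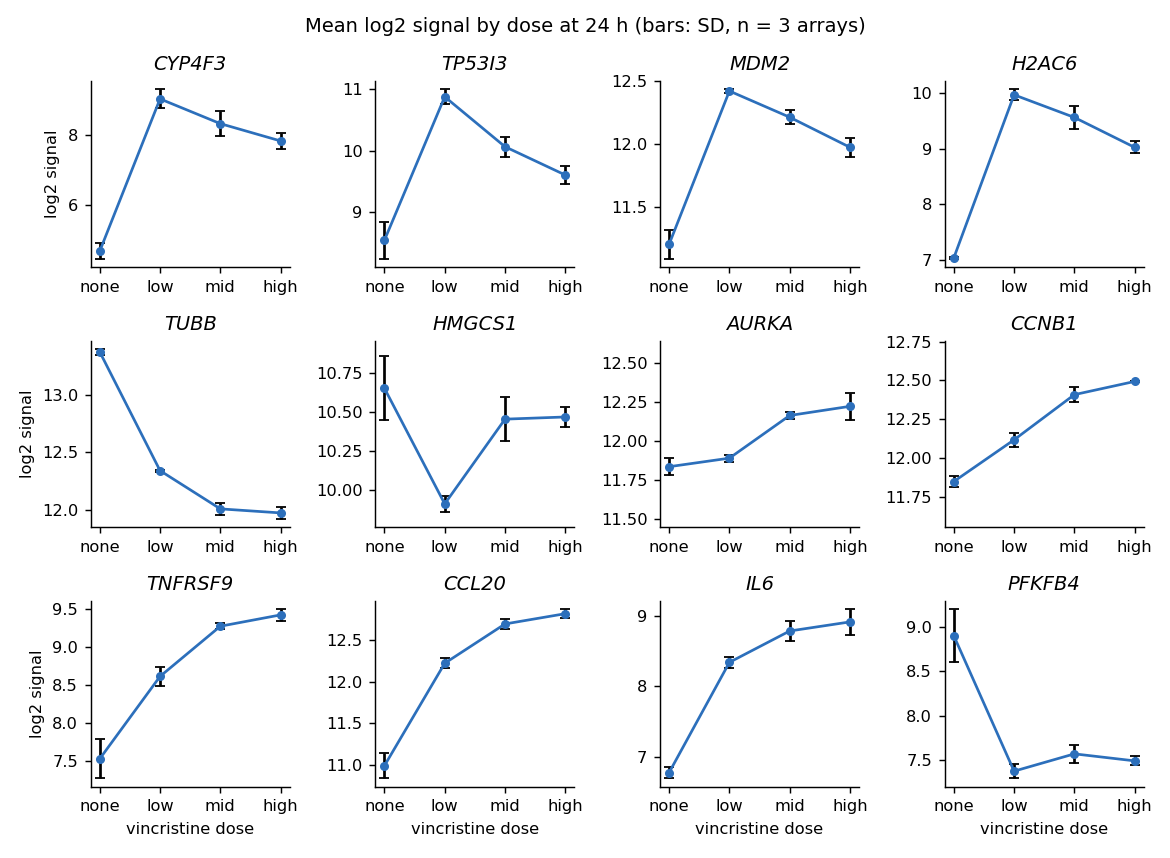
Mean log2 signal of 12 genes at 24 h in untreated cultures (none) and at the lowest, middle and highest vincristine dose, with bars of ± SD (n = 3 arrays); each panel has its own axis, which does not start at 0. The p53 targets CYP4F3, TP53I3 and MDM2 peak at the lowest dose, HMGCS1 is lowest there, TUBB is lower and CCNB1, TNFRSF9, CCL20 and IL6 are higher at the middle and highest doses than at the lowest.

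Colcemid, which binds tubulin at another site, was labelled with the same lowest dose in µg/ml and the same time, and it called 5234 genes (37.3%) against its own untreated arrays. The changes of the 14023 genes with either drug correlated at r = 0.904 across genes, which are not independent samples. The difference between the changes was called for 117 genes (0.834%), 31 higher (0.221%) and 86 lower (0.613%) with vincristine than with colcemid. With the experiment number as a block it was called for 308, without experiments 1, 2 and 3 for 18, 21 and 14, and with quantile normalization repeated for 316, of which 43.4% were higher in place of 26.5%. HMOX1 changed by -0.62 with vincristine and by 0.11 with colcemid (difference -0.73 ± 0.0872, limma adjusted p = 3.68e-06). HMOX1 averaged 8.807 with vincristine and 9.135 with colcemid. Its untreated cultures differed the other way, with 9.428 in the vincristine set and 9.023 in the colcemid set, so part of the difference lies in the untreated arrays. IL6 changed by 1.56 with vincristine and by 0.79 with colcemid (difference 0.78 ± 0.171, limma adjusted p = 0.014). TP53I3 changed by 2.33 with vincristine and by 3.04 with colcemid (difference -0.71 ± 0.125, limma adjusted p = 0.00159). The call of TP53I3 was lost without experiment 3 (-0.71) and that of IL6 without experiment 2 (0.89) or 3 (0.75), while that of HMOX1 held whichever experiment was left out. The change with vincristine was the larger for IL6 and HMOX1 and that with colcemid for TP53I3, and HMOX1 did not pass the test with colcemid (limma adjusted p = 0.117).

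TNF and CCL20 were likewise higher with vincristine than with colcemid, by 0.47 and 0.35, and both lost their call whichever experiment was left out. Among mitotic genes AURKA, CCNB1, NEK2, TPX2, UBE2S and BIRC5 were relatively higher with vincristine and CDK1 lower, CCNB1 changing by 0.27 with vincristine and by -0.07 with colcemid. Of the 6 higher ones 0, 4 and 1 were called without experiments 1, 2 and 3, and CDK1 was called only without experiment 3. Of the p53 targets 5 of 46 were lower (TP53I3, TP53INP1, DDB2, APAF1 and CCNG1) and 0 higher with vincristine, and 1 of them was called without each experiment. BNIP3, BNIP3L and PDK1 of the hypoxia list were lower (1, 0 and 0 called without experiments 1, 2 and 3), and MIR210HG changed by -2.18 with vincristine and by -1.29 with colcemid. The treated arrays of MIR210HG were all below 6.183 with either drug, so the size of its difference is uncertain. Its untreated cultures averaged 7.856 in the vincristine set and 7.298 in the colcemid set. TUBB fell more with vincristine, by 1.03 log2 units with vincristine and 0.82 with colcemid (difference -0.21, limma adjusted p = 0.0133), a call lost whichever experiment was left out. TUBA1A had opposite signs, with -0.17 for vincristine and 0.22 for colcemid (difference -0.39, limma adjusted p = 0.00118), and its call was lost without experiment 2 (-0.38) or 3 (-0.32). The remaining named differences were SLCO4C1 (-0.96, below 6.183 on every vincristine array), MAP3K5-AS2 (-0.79), the mitochondrial complex I gene ND6 (0.74), C6orf58 (0.61) and the histone gene H2BC6 (0.42). Apart from MAP3K5-AS2, the calls of these genes and of TNF and MIR210HG were each lost without at least 1 experiment, with values of -0.74 to -0.89 for SLCO4C1, 0.70 to 0.71 for ND6, 0.52 to 0.62 for C6orf58, 0.39 to 0.44 for H2BC6, 0.40 to 0.55 for TNF and -0.75 to -0.96 for MIR210HG where they were lost. CYP4F3 did not differ past the threshold (-0.32 ± 0.196, limma adjusted p = 0.696), which does not show that the drugs act alike on it.

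**Figure D4:**
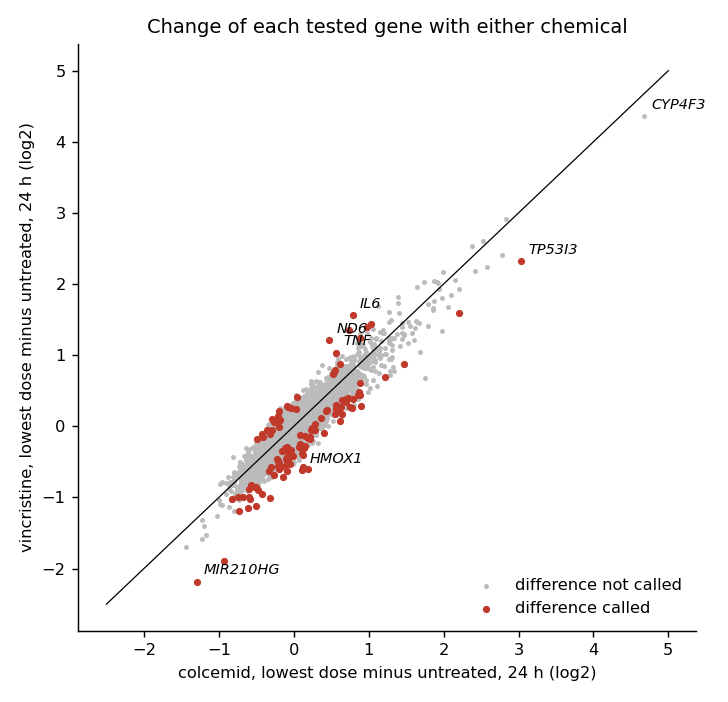
Log2 change of each of the 14023 tested genes at 24 h with colcemid (horizontal) and with vincristine (vertical), each at its lowest dose minus its own untreated arrays, with red for the 117 genes whose changes differed and grey for the others; the line marks equal changes. Most genes lie along the line (r = 0.904), with TP53I3, HMOX1 and MIR210HG below it and IL6, ND6 and TNF above it.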

How the data were processed

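Each of the 6 compared arrays is an Affymetrix HG-U133 Plus 2 GeneChip of total RNA (RNeasy Mini Kits, One Cycle Target Labelling with biotin, per the labels' protocols). The authors deposited log2 signals made by RMA, per the submitters' processing notes; the software version is not given in the sources used here. These log2 values were used as deposited and carry no counts, so the number of arrays limits the precision. Array medians over the 120 arrays ran between 6.133 and 6.243, and no arrays were identical.

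Of 54675 probe sets, 62 are controls, 41091 have 1 symbol in GEO's platform annotation, 1801 several and 11721 none, and 41037 of the 1-symbol probe sets matched the RefSeq gene table (GRCh38.p14). For each of 19775 genes the brightest probe set on average was used, and 10523 genes have others too. The 14023 genes tested reached 6.183 on at least 3 of the 120 arrays. limma 3.58.1 (R 4.3.3; lmFit and eBayes) was fitted to the 24 vincristine arrays as 8 group means, or to 48 arrays with those of colcemid as 16, without a block, and p-values were adjusted by Benjamini-Hochberg over all tested genes with a threshold of 0.05. The script was first tested on simulated data.

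Experiment numbers pair the samples in part. Residuals of same-numbered vincristine and untreated arrays at 24 h correlated at 0.336, 0.558 and 0.234, against at most 0.09, -0.262 and 0.242 for other numbers. Those of colcemid and its untreated arrays correlated at 0.368, 0.59 and 0.244, against at most 0.28, -0.367 and 0.205. For vincristine experiment 3 the same number was not the closest. The main fits took no account of pairing, and a block was fitted as an alternative.

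Named genes were the 12 called genes with the largest rise and the 12 with the largest fall among those that moved the same way in all 3 experiments, up to 4 called genes of each list with the largest change, a panel of 20 genes, not all of them tested, and the 5 largest called differences each way in each further comparison. Other members are named as examples, chosen after their values were seen. The comparison, the 33 gene lists (written from general knowledge) and the rules were chosen with earlier results of these data known. Of 875 genes on the lists, 741 were tested. Alternatives were other filters, probe set rules, normalizations and fits, and leaving out each experiment or array. Promoters come from the RefSeq table (GRCh38.p14); no genome was used.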

Additional observations from a re-analysis of the deposited data

Results flagged for a closer look

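The change at the lowest vincristine dose differed between 24 h and 4 h, in a test of the difference itself, for 3547 genes. The largest such differences (24 h minus 4 h, log2) toward higher were those of CYP4F3 at 4.197, H2AC6 at 2.981, CYP4F2 at 2.598, H2BC12 at 2.481 and LCE1B at 2.411. Toward lower they were those of MIR210HG at -1.972, SLCO4C1 at -1.827, APELA at -1.694, FBXO5 at -1.67 and PFKFB4 at -1.436. At 4 h CYP4F3, MIR210HG and APELA were below 6.183 on every array of both groups. At 24 h CYP4F3 was below it on every untreated array, and MIR210HG, APELA and SLCO4C1 on every vincristine array. The sizes of the differences of these genes are therefore uncertain.

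The change differed between vincristine and colcemid, again by a test of the difference, for 117 genes. Vincristine minus colcemid was 0.778 for IL6, 0.74 for ND6, 0.609 for C6orf58, 0.469 for TNF and 0.422 for H2BC6. It was -0.96 for SLCO4C1, -0.888 for MIR210HG, -0.786 for MAP3K5-AS2, -0.733 for HMOX1 and -0.713 for TP53I3. SLCO4C1 and MIR210HG were below 6.183 on every array of the lowest vincristine dose at 24 h. MIR210HG was below it on the treated colcemid arrays too. Untreated cultures at 24 h averaged higher in the vincristine than in the colcemid set for MIR210HG and HMOX1.

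Probe sets with no gene symbol in the platform annotation entered no comparison of genes, yet 983 of the 4461 tested of them (22%) were called between vincristine and untreated cells at 24 h, 544 higher and 439 lower.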

How the results depend on the processing

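The count of 5248 genes changed at 24 h was 3519 to 4501 without 1 experiment and 4563 to 4917 without 1 array, and 672 when a change of at least 1.5-fold was also asked for. It was 5978 with the experiment number as a block, of which 5247 were shared, and the 6 other settings gave between 4200 and 5837. The 24 h minus 4 h count of 3547 was 1860 to 2684 without 1 experiment and 4421 with the block, and the 4 h count of 0 was 0 without any experiment, 1 after another round of quantile normalization and 2 when all 120 arrays were fitted. The 706 genes between lowest and middle dose were 1267 with the block, 1158 with quantile normalization repeated, 97 with only the compared groups fitted and 24 to 193 without 1 experiment. The 1909 genes between lowest and highest dose were 2665 with the block, 1235 with only the compared groups fitted and 500 to 1260 without 1 experiment. Residuals of same-numbered arrays correlated at 0.04, 0.417 and 0.286 between the lowest and middle doses and 0.092, 0.406 and 0.215 between the lowest and highest. For experiment 1 other numbers reached 0.186 and 0.143, so pairing by number is not shown for it there. The numbers were not taken as pairs in the main fit of any comparison. The 117 genes between vincristine and colcemid were 308 with the block, 69 with probe sets averaged, 316 with quantile normalization repeated, 14 with only the compared groups fitted and 14 to 21 without 1 experiment. For the counts that moved, the cause was not tested, beyond the fewer arrays that some settings use. Among named genes of the main comparison 3 values reversed: SQSTM1 at -0.017 and YWHAZ at -0.015 with probe sets averaged, and HSPA1L at -0.009 with quantile normalization repeated. RPS19, the ribosomal protein gene called higher, lost its call in most settings. With 3 arrays a group, all of 1 cell line, the number of arrays limits the precision.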
